A study of Mus musculus with 14 samples.

Results

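The unfolded protein and amino acid stress genes are a set of 37 mouse genes that cells use when proteins misfold in the endoplasmic reticulum (ER) or when amino acids run short. They were chosen by symbol from a list, with earlier results of these data known. The shares of all genes set beside them below therefore describe the set and do not test it. Each of the 37 was found among the 29923 gene symbols of the expression table. All 37 passed the filter for testing, which kept 13466 genes at a TPM (a length-scaled share of all transcripts in a tumour) of 1 or more in at least 3 tumours, and 34 of them reached 1 TPM in every tumour. The set was divided by role into 7 sensors and transcription factors, 5 stress effectors and feedback genes, 6 enzymes of amino acid and one-carbon metabolism, 11 ER chaperones and foldases, 4 co-chaperones of the DnaJ family and 4 genes of ER-associated degradation.

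The tumours were 14 hepatocellular carcinomas raised in the livers of C57BL/6 mice by plasmids forced into the tail vein under pressure, a method that delivers DNA mainly to hepatocytes. Every tumour carried MYC driven by the EF1a promoter on a transposon plasmid, inserted by the SB100 Sleeping Beauty transposase. In Luc tumours MYC was linked to luciferase, and in LucOS tumours to luciferase joined with the OVA, SIN and SIY antigens. Each model received either PKT2/CLP-Aoah, which overexpresses Aoah, an enzyme that removes acyl chains from bacterial lipopolysaccharide, or the empty PKT2/CLP-Vec. This gave 4 Luc vector, 4 Luc Aoah, 3 LucOS vector and 3 LucOS Aoah tumours. A plasmid for a shortened beta-catenin, N90-CTNNB1, is listed without a statement of which tumours carried it. An anti-PD1 protocol is attached to the samples, with no tumour named as treated. The sources give no age, sex or animal for any tumour, so p-values measure only the spread between these samples, which may be technical in part. RNA came from whole tumour pieces, in which fewer cells of a type and less RNA per cell cannot be told apart.

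Misfolded proteins in the ER are sensed by membrane proteins encoded by Ern1 (IRE1), Eif2ak3 (PERK) and Atf6. IRE1 splices the mRNA of the transcription factor Xbp1, ATF6 is cut to release a transcription factor, and PERK slows translation while favouring that of Atf4. Xbp1 and ATF6 raise chaperones, foldases and degradation factors, whereas Atf4 raises amino acid transporters, amino acid synthesis enzymes and, with Ddit3 (CHOP), genes of cell death and feedback. Atf4 is also reached through GCN2, which senses uncharged transfer RNA. Hepatocytes secrete most plasma proteins and therefore keep a large ER folding capacity.

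Aoah separated the groups as labelled. Its level in the 4 Luc Aoah tumours ran from 283.72 to 685.24 TPM, and vector tumours of that model held 0.74 to 54.76 TPM. The LucOS model gave 576.03 to 931.15 TPM after the Aoah plasmid and 1.28 to 3.43 TPM after the vector. The Luc vector tumours were uneven, with 18.57 TPM in vector 1 and 54.76 TPM in vector 3 against under 1 TPM in the other two. Luc Aoah 3 stood apart by its small noncoding RNA, 2.99% of its TPM where the other 13 tumours had 0.135% to 0.307%. LucOS Aoah 3 stood apart by its mitochondrially encoded transcripts, 16.6% where the others had 3.41% to 8.45%. All 8 hepatocyte markers were detected, with a summed level of 5372 to 7568 TPM in Luc vector, 5860 to 21494 TPM in Luc Aoah, 3051 to 7167 TPM in LucOS vector and 7090 to 16997 TPM in LucOS Aoah tumours. With Aoah, 2 of these 8 markers rose in Luc and 1 in LucOS tumours, beside 7.93% and 0.75% of all genes tested. None of the 8 fell in either model. In Luc 2 of the 8 had a log2 change below 0, beside 64% of all genes. They were Cps1 (-0.77, limma adjusted p = 0.061) and Ass1 (-0.18). In LucOS all 8 had a change above 0. The part of hepatocytes in the results below was not tested. Depth per tumour is unknown because TPM does not keep it. In the authors' deposited tables the mean normalized count of the 37 genes ran from 69.9 (Chac1) to 39241 (Hspa5) in Luc and from 48.9 (Chac1) to 46004 (Hspa5) in LucOS, so Chac1 rested on the fewest reads.

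The 37 genes differed widely in level. Calr, a lectin chaperone that buffers calcium in the ER, had the highest median over the 14 tumours, at 805 TPM. Hspa5 (BiP), the ER chaperone that also holds the sensors inactive, followed at 638 TPM and Hsp90b1 (GRP94) at 507 TPM. The sensors were among the lowest, with medians of 8.44 TPM for Atf6, 3.25 TPM for Eif2ak3 and 1.86 TPM for Ern1. The lowest median was that of Chac1, a glutathione-degrading target of Atf4, at 1.42 TPM. The sum of the 37 genes was 0.483% to 0.684% of the transcripts of a Luc vector tumour and 0.301% to 0.500% of those of a Luc Aoah tumour. In LucOS tumours the share was 0.406% to 0.652% with vector and 0.413% to 0.427% with Aoah. These ranges overlapped in both models, and the widest gap between tumours of a group was within LucOS vector.

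**Figure D1:**
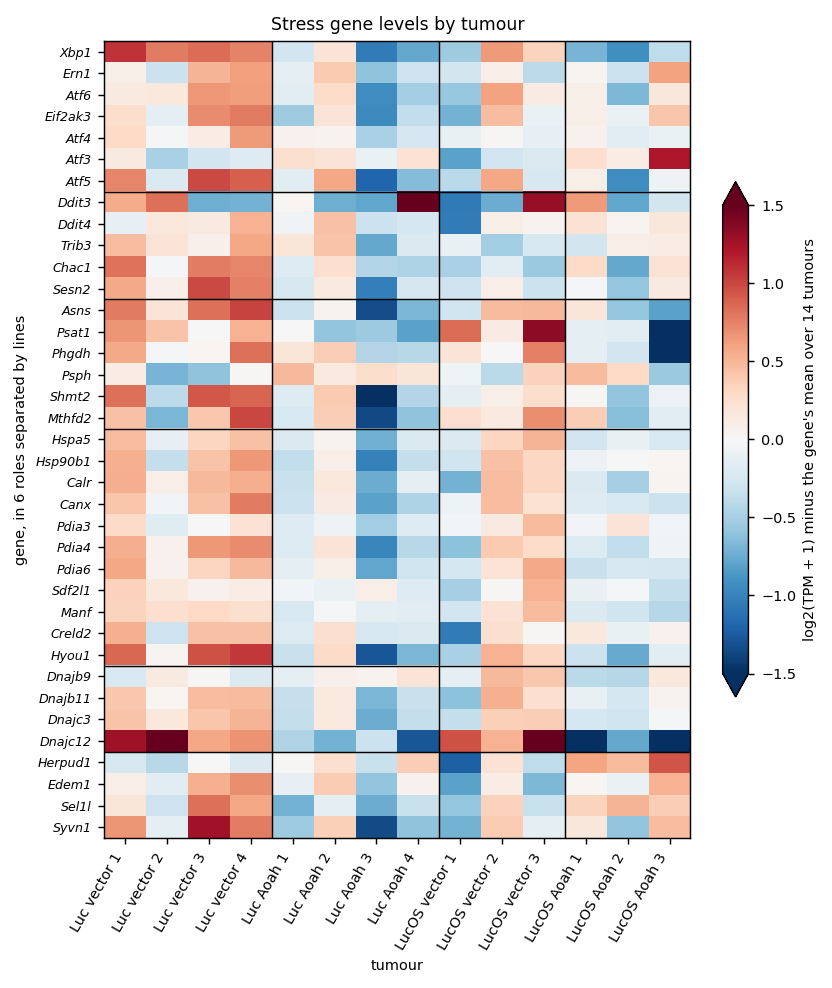
Each cell is 1 gene in 1 tumour, coloured by log2(TPM + 1) minus that gene's mean over the 14 tumours; rows are in 6 roles and columns in 4 groups. Luc vector tumours 1, 3 and 4 are mostly above the mean and Luc Aoah 3 mostly below it, Dnajc12 separates Aoah from vector in both models, and Herpud1 and Atf3 run the other way in LucOS.

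The first comparison asked whether Aoah altered these genes in the Luc model, which lacks the antigens. Of the 37 genes, 11 fell and none rose at an adjusted p of 0.05 (limma over all 13466 genes, Benjamini-Hochberg), beside 22.2% of all genes tested, of which 7.93% rose and 14.3% fell. At an unadjusted p of 0.05 there were 24 of the 37, beside 41.8% of all genes. A change below 0 was seen in 32 of 37, beside 64% of all genes. The median log2 change of the 37 was -0.68 and that of all genes was -0.24, so the set lay 0.44 below the background. Because the median of all genes itself lay below 0, tumours were also centred each on its own median. Of the 37 genes, 10 then fell and 3 rose (Atf3, Psph and Herpud1), beside 14.7% and 15.9% of all genes. By the authors' deposited table, 19 fell and 4 rose (Atf3, Ddit3, Psph and Herpud1), beside 16.1% and 15.6% of the genes there.

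The 11 genes that fell came from every role. They were 1 of 7 sensors and transcription factors (Xbp1), 1 of 5 effectors (Sesn2), 1 of 6 metabolic enzymes (Asns), 4 of 11 chaperones and foldases (Canx, Pdia4, Pdia6 and Hyou1), 2 of 4 DnaJ co-chaperones (Dnajc3 and Dnajc12) and 2 of 4 degradation genes (Sel1l and Syvn1). Xbp1, Asns and Dnajc12 kept the call in each of the 8 fits that left out 1 Luc tumour. The other 8 depended on single tumours: the number of genes that fell was 3 or 4 without Luc Aoah 1, 3 or 4 or without Luc vector 1, 3 or 4, but 21 without Luc Aoah 2 and 20 without Luc vector 2. Without both Luc vector 1 and Luc vector 3, the vector tumours with more Aoah, Dnajc12 was the 1 gene left.

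**Figure D2:**
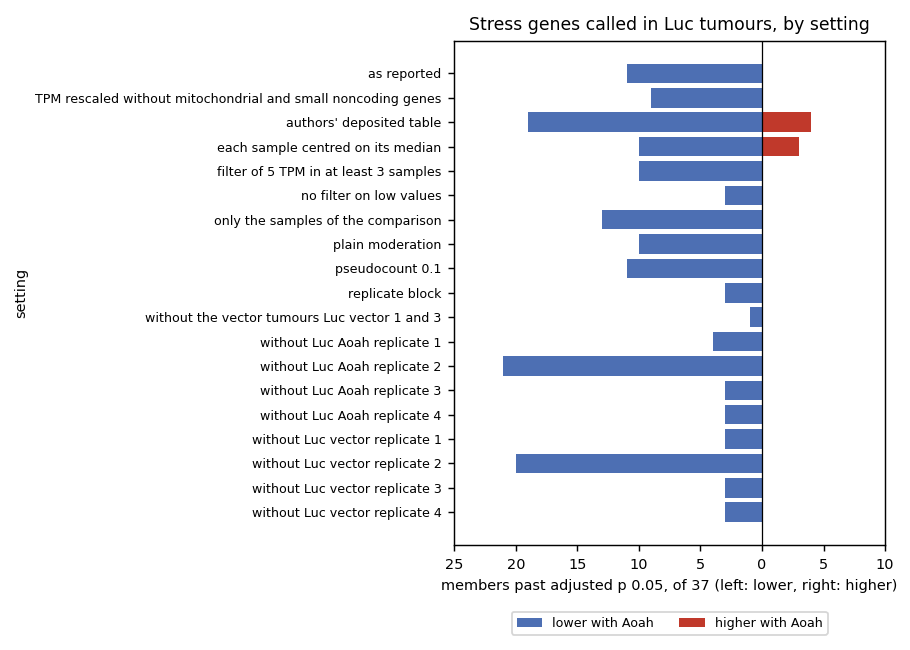
Bars count how many of the 37 genes passed an adjusted p of 0.05 in Luc tumours, lower with Aoah to the left and higher to the right, for each way of processing the data. The count of lower genes is 11 as reported, ranges from 1 to 21, and genes counted as higher appear when tumours are centred on their median (3) and in the authors' deposited table (4).

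Among the sensors and transcription factors, Xbp1 had the largest change in Luc tumours. Its TPM was 177, 144, 149.7 and 140.1 in Luc vector tumours 1 to 4, and 67.7, 95.3, 39.6 and 48.5 in Luc Aoah tumours 1 to 4. Every Aoah tumour lay below every vector tumour, as in 5 of the 37 genes (Xbp1, Asns, Manf, Dnajc3 and Dnajc12) beside 9.1% of all genes tested. The mean was 153 ± 16.9 TPM with vector and 62.8 ± 24.7 TPM with Aoah (SD, n = 4 each), 2.43-fold lower, a log2 change of -1.34 (SE 0.28, limma adjusted p = 0.0064). TPM sums all transcripts of a gene, so the spliced and unspliced forms of Xbp1 mRNA were not separated.

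None of the 3 sensor genes passed. Eif2ak3 changed by -0.81 (limma adjusted p = 0.064), Atf6 by -0.73 (adjusted p = 0.093) and Ern1 by -0.39 (adjusted p = 0.29) on the log2 scale. Atf4, the transcription factor of the PERK and GCN2 arms, stood at 121, 96.6, 106 and 153 TPM in Luc vector tumours and at 102, 101.6, 69.5 and 81.8 TPM in Luc Aoah tumours. The groups overlapped, and the change was -0.42 on the log2 scale (SE 0.18, adjusted p = 0.093). Centred on the tumour medians the change of Atf4 was -0.10. Atf5, an Atf4 target that is itself a transcription factor, changed by -0.96 (adjusted p = 0.076). Atf3, a stress-induced repressor, stood at 6.99, 4.20, 4.97 and 5.36 TPM in Luc vector tumours and at 7.63, 7.35, 5.83 and 7.48 TPM in Luc Aoah tumours. Luc Aoah 3 lay within the vector range, and the change was 0.35 (adjusted p = 0.30).

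The effectors and feedback genes gave 1 call. Sesn2, an Atf4 target that restrains mTORC1 when amino acids are scarce, stood at 3.40, 2.13, 4.87 and 3.98 TPM in Luc vector and at 1.5, 2.28, 0.45 and 1.49 TPM in Luc Aoah tumours. Luc Aoah 2 lay just above Luc vector 2, and the other 3 Aoah tumours lay below all vector tumours. Sesn2 fell by 0.94 on the log2(TPM + 1) scale (SE 0.27, adjusted p = 0.030), which understates the change of so low a gene. Chac1 changed by -0.78 (adjusted p = 0.051), the pseudokinase gene Trib3 by -0.42 (adjusted p = 0.21) and Ddit4, an mTORC1 inhibitor, by -0.23 (adjusted p = 0.51). Ddit4 turned to 0.09 after centring, so its direction depends on the scaling.

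Ddit3 could not be measured well. Its row varied from 1.98 to 7.76 TPM among Luc vector tumours, and Luc Aoah tumours held 1.88 to 4.03 TPM except for Luc Aoah 4 at 26.2 TPM. In the annotation used for naming, 2 gene models carry this symbol, with 1713 and 105 exon bases. The authors' mean normalized counts for them were 122 and 0.901 in Luc. The sources do not say which model the TPM row holds. Its values, such as 1.984962 TPM in Luc vector 3, carry more decimals than those of the other genes. The row may therefore combine both models, and its levels and changes may be those of neither. In the authors' deposited DESeq2 table the model with more reads changed by 0.65 in Luc (adjusted p = 0.043). The log2 change of the TPM row was 0.26 (limma adjusted p = 0.80), and without Luc Aoah 4 it was -0.48 (adjusted p = 0.56).

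Among the enzymes, Asns fell. Asns makes asparagine and is among the best known Atf4 targets. It stood at 171, 114, 177 and 202 TPM in Luc vector and at 79.4, 103, 38.8 and 61.5 TPM in Luc Aoah tumours. The groups did not overlap, although Luc vector 2 and Luc Aoah 2 lay close. The change was 2.35-fold, or -1.27 on the log2 scale (SE 0.31, adjusted p = 0.014).

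The serine synthesis enzymes act in the order Phgdh, Psat1, Psph, and they did not move as a block. Phgdh changed by -0.43 (adjusted p = 0.32) and Psat1 by -0.89 (adjusted p = 0.067, with 337, 287, 212 and 307 TPM in the 4 vector tumours against 215, 141, 145 and 122 TPM with Aoah), while Psph changed by 0.56 (adjusted p = 0.11). Psph held 19.8 to 35.5 TPM among the vector tumours and 36.4 to 46.4 TPM among those with Aoah, and it was the 1 gene of the 37 whose Aoah tumours all lay above the vector tumours, beside 11.8% of all genes tested. Psph rose after centring (0.88, adjusted p = 0.045) and in the authors' deposited table. The mitochondrial one-carbon enzymes Shmt2 (-1.01, adjusted p = 0.058) and Mthfd2 (-0.75, adjusted p = 0.15) did not pass, and each had a log2 SD over 0.6 in both Luc groups.

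Promoters of the whole set were searched for the ER stress response element (ERSE), which is CCAAT, any 9 bases and CCACG. The search covered the 250 bases before each transcription start. ERSE is read by ATF6 and XBP1 together with NF-Y. RefSeq promoters of build GRCm38.p6 held 33 of the 37 genes, as 35 promoters; Atf6, Manf, Hyou1 and Dnajc12 had no entry. On either strand, ERSE was found in 8 of 35 promoters (22.9%) and in 37 of all 32851 promoters (0.113%). CCACG alone, which lies inside ERSE, was in 24 of 35 (68.6%) against 28.3% of all. The second element ERSE-II, which is ATTGG, any base and CCACG, was in the Herpud1 promoter alone (2.86% of 35, 0.0304% of all). Neither UPRE, searched as TGACGTGG, nor the amino acid response element, searched as TGATGNAAT, matched any of the 35. Of all promoters, 0.563% and 0.816% held them. The first search fixed the last base as G and so passed over TGACGTGA in the Hspa5 promoter. The second search fixed the last base as T and so passed over variants such as TGATGAAAC in the Asns promoter. Such variants were not counted, so these promoters cannot be said to lack either element. The stretches below show the element in Hspa5, the defining chaperone, in the 4 ERSE genes that fell in Luc tumours and in Herpud1. They read 5′ to 3′ on the gene's own strand, and capitals mark the matched element.
Hspa5 (chr2:34772005-34772063, plus strand): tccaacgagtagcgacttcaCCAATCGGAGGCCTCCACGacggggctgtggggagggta
Canx (chr11:50325780-50325838, minus strand): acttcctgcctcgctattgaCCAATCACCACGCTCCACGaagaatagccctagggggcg
Pdia6 (chr12:17266471-17266529, plus strand): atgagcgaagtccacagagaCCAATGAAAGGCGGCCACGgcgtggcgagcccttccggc
Dnajc3 (chr14:118937807-118937865, plus strand): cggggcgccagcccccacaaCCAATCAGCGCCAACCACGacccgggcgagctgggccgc
Syvn1 (chr19:6046512-6046570, plus strand): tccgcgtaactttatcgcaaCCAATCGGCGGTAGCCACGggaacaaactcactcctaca
Herpud1 (chr8:94386357-94386407, plus strand): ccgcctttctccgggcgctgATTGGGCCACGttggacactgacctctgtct

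The element began 65 bases before the start in Hspa5, 145 in Canx, 98 in Pdia6, 105 in Dnajc3 and 44 in Syvn1, and the ERSE-II of Herpud1 began 52 bases before it. The other genes with ERSE were Hsp90b1, with 2 matches, Calr and Creld2. In Luc tumours all 8 ERSE genes had a change below 0, 4 of them fell, and their median was -0.70 (range -1.17 to -0.38). Among the 25 genes with a promoter and no ERSE, 5 fell, 20 had a change below 0, and the median was -0.43. Of all genes tested 14.3% fell and 64% had a change below 0. In LucOS tumours no ERSE gene passed in limma, and Creld2 (0.30) and Syvn1 (0.17) lay above 0. All ERSE genes but Dnajc3 and Syvn1 are chaperones or foldases, so element and role were not separated. A match describes letters and says nothing about binding in these tumours.

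All 11 ER chaperones and foldases had a log2 change below 0 in Luc tumours, from -1.24 to -0.23, and 4 of them fell. Sdf2l1, at -0.23, turned to 0.09 after centring. Hyou1, an exchange factor for BiP, had the largest change. It stood at 50.1, 28.0, 53.8 and 58.0 TPM in Luc vector and at 21.4, 33.3, 10.6 and 16.5 TPM in Luc Aoah tumours. Luc Aoah 2 lay above Luc vector 2, so the groups overlapped by that pair, and the change was -1.24 (SE 0.33, adjusted p = 0.022).

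Pdia4 and Pdia6 are disulfide isomerases, and Canx is the membrane lectin chaperone that works with Calr. Canx stood at 294, 213, 298 and 379 TPM in Luc vector and at 175, 239, 126 and 159 TPM in Luc Aoah tumours (-0.76, SE 0.22, adjusted p = 0.027). For Pdia4 the values were 215, 154, 230.5 and 242 TPM with vector and 128, 168, 74.2 and 109.6 TPM with Aoah (-0.84, SE 0.26, adjusted p = 0.038). Pdia6 was at 275, 192, 230.1 and 257 TPM with vector and at 168, 195, 107 and 149.9 TPM with Aoah (-0.64, SE 0.21, adjusted p = 0.045). In all 3 genes Luc vector 2 was the lowest vector tumour, Luc Aoah 2 was the highest Aoah tumour and lay above it, and Luc Aoah 3 was lowest.

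Hspa5 stood at 957, 633, 864 and 938 TPM in Luc vector and at 596, 717, 421 and 595 TPM in Luc Aoah tumours. The groups overlapped, and the change of -0.55 (SE 0.21, adjusted p = 0.068) missed the threshold. Hsp90b1 (-0.72, adjusted p = 0.059) and Calr (-0.68, adjusted p = 0.067) lay close to it as well. Manf, a secreted ER chaperone-like factor, had the smallest spread of the 37 within both Luc groups, with vector tumours at 419.7, 397, 408 and 392.4 TPM and Aoah tumours at 283, 326, 301 and 295.5 TPM. Its groups did not overlap, yet its change of -0.42 was small (adjusted p = 0.071). The isomerase Pdia3 (-0.32), the stress-induced ER protein Creld2 (-0.38) and Sdf2l1 did not pass.

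The DnaJ genes encode co-chaperones that load clients onto Hsp70 proteins such as BiP. Dnajc3 (p58IPK), which also restrains PERK, stood at 62.6, 51.4, 62.0 and 66.1 TPM in Luc vector and at 35.7, 51.3, 27.0 and 35.8 TPM in Luc Aoah tumours. Luc Aoah 2 reached the level of Luc vector 2 without passing it, and Dnajc3 fell by 0.71 on the log2 scale (SE 0.21, adjusted p = 0.034). Dnajb11 changed by -0.65 (adjusted p = 0.063) and Dnajb9, a repressor of IRE1, by 0.12 (adjusted p = 0.65).

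Dnajc12, a co-chaperone of the aromatic amino acid hydroxylases such as phenylalanine hydroxylase, had the largest change of the 37 in both models. It stood at 149.5, 177, 92.2 and 98.9 TPM in Luc vector tumours and at 44.6, 37.3, 49.0 and 24.7 TPM in Luc Aoah tumours. The lowest vector tumour was well above the highest Aoah tumour. The mean was 129.5 ± 40.9 TPM with vector and 38.9 ± 10.6 TPM with Aoah (SD, n = 4 each), 3.33-fold lower, a log2 change of -1.70 (SE 0.33, limma adjusted p = 0.0043). All 18 alternative analyses of the Luc comparison made the same call for Dnajc12.

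In ER-associated degradation, Sel1l and Syvn1 (HRD1) form the core of the ubiquitin ligase that extracts misfolded proteins. Sel1l stood at 16.0, 11.1, 25.6 and 21.4 TPM in Luc vector and at 8.13, 12.6, 7.92 and 10.9 TPM in Luc Aoah tumours (-0.80, SE 0.27, adjusted p = 0.044). Syvn1 was at 14.9, 8.14, 23.0 and 16.0 TPM with vector and at 5.92, 11.8, 2.96 and 5.62 TPM with Aoah (-1.17, SE 0.38, adjusted p = 0.043). In both genes Luc Aoah 2 alone lay above Luc vector 2, and the calls were among the least stable, holding in 6 and 7 of 18 alternatives. Edem1, which targets glycoproteins for degradation, changed by -0.36 (adjusted p = 0.32).

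Herpud1, a scaffold of the same ligase, did not follow its partners. It stood at 62.3, 55.0, 73.5 and 63.6 TPM in Luc vector and at 74.7, 87.4, 58.7 and 95.6 TPM in Luc Aoah tumours. Luc Aoah 3 lay within the vector range and the other 3 above it, and the change of 0.29 did not pass (SE 0.26, adjusted p = 0.39). Centred on tumour medians it rose by 0.61 (adjusted p = 0.031).

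**Figure D3:**
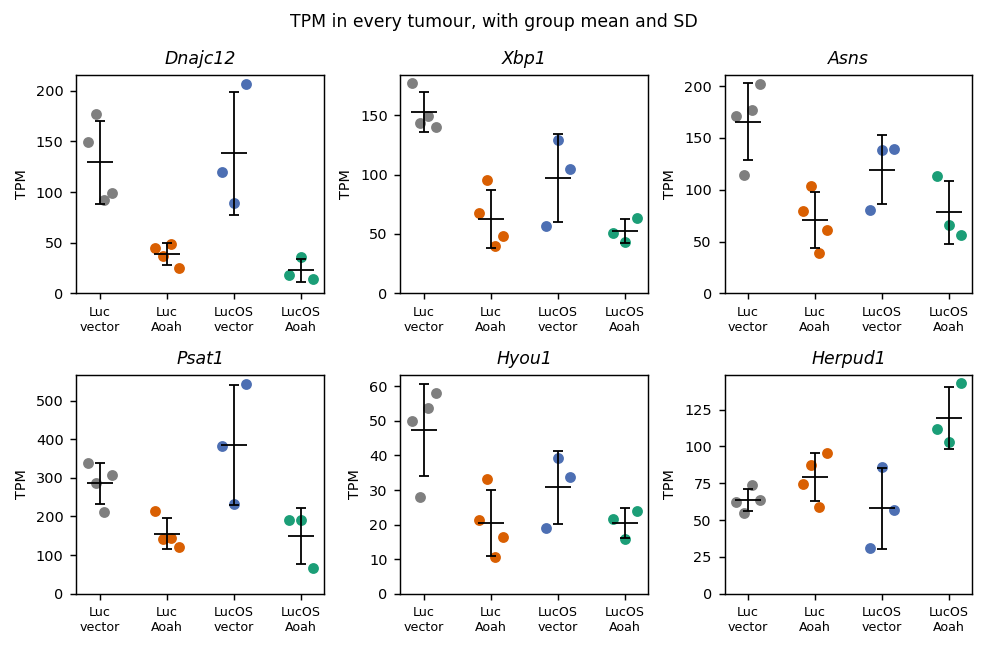
Points are TPM in each tumour for 6 of the genes, with the group mean and SD as bars, for Luc vector, Luc Aoah, LucOS vector and LucOS Aoah tumours. Dnajc12 Aoah tumours lie below all vector tumours of both models, Xbp1 and Asns do so in Luc, Psat1 does so in LucOS, and Herpud1 is highest in LucOS Aoah tumours.

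In the antigen-bearing LucOS model, 1 of the 37 genes fell with Aoah and none rose, beside 0.215% of all genes that fell and 0.75% that rose. At an unadjusted p of 0.05 there were 7, beside 12.3% of all genes. The median change was -0.18 beside -0.02 for all genes, and 22 of 37 lay below 0, beside 52.5%. Each group held 3 tumours.

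The gene that fell was Dnajc12. It stood at 120, 89.0 and 206 TPM in LucOS vector and at 18.3, 35.6 and 14.4 TPM in LucOS Aoah tumours. The groups did not overlap, and the means of 138 ± 60.8 and 22.8 ± 11.3 TPM (SD, n = 3 each) differed 6.08-fold. On the log2 scale it fell by 2.57 (SE 0.38, limma adjusted p = 0.0097). Leaving out LucOS Aoah 1 or LucOS Aoah 3 ended the call, with changes of -2.46 (adjusted p = 0.053) and -2.30 (adjusted p = 0.054). Over all 15 alternatives the adjusted p ran from 9.15e-05 to 0.10.

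Herpud1 had the largest change above 0 of the 37 in LucOS tumours. Its values were 31.0, 86.2 and 56.5 TPM with vector and 112, 103 and 143 TPM with Aoah. The groups did not overlap, and the mean was 2.06-fold higher with Aoah. The change of 1.13 (SE 0.30) missed the threshold at an adjusted p of 0.099. Herpud1 passed when tumours were centred on their medians (1.11, adjusted p = 0.030), where 1 of the 37 genes rose and 1 fell, beside 1.19% and 0.431% of all genes. It also passed in the authors' deposited table (1.08, adjusted p = 0.027), where again 1 of 37 rose and 1 fell, beside 1.99% and 0.78% (2.77% in either direction), and without LucOS vector 2 (1.48, adjusted p = 0.010). Atf3 was the other gene whose Aoah tumours all lay above the vector tumours, at 7.69, 6.90 and 15.9 TPM against 3.18, 4.99 and 5.30 TPM (log2 change 0.96, adjusted p = 0.15). These 2 genes stand beside 6.22% of all genes tested.

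Psat1 stood at 382, 232 and 543 TPM in LucOS vector and at 192, 191 and 66.9 TPM in LucOS Aoah tumours. The 2 groups did not overlap, the lowest value was in LucOS Aoah 3, and the change was -1.42 (SE 0.39, adjusted p = 0.10). Its neighbour in the pathway, Phgdh, was at 174 to 295 TPM with vector and 55.8 to 159 TPM with Aoah (-0.997, adjusted p = 0.27). Canx, like Psat1, Phgdh and Dnajc12, had every Aoah tumour below every vector tumour (-0.45, adjusted p = 0.51), which makes 4 of 37 beside 6.07% of all genes tested. Xbp1 stood at 57.0, 129.5 and 105 TPM with vector and 51.0, 43.5 and 63.5 TPM with Aoah. LucOS vector 1 lay among the Aoah tumours, and the change of -0.81 (SE 0.32) did not pass (adjusted p = 0.31).

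None of the remaining LucOS changes passed. Manf stood at 272, 387 and 462 TPM with vector and at 285, 271 and 246 TPM with Aoah, a change of -0.45 (SE 0.19, adjusted p = 0.34) with LucOS vector 1 among the Aoah tumours. Dnajb9 changed by -0.48 (SE 0.22), Edem1 by 0.60 (SE 0.31) and Sel1l by 0.59 (SE 0.31). The 4 degradation genes all lay above 0, from 0.17 (Syvn1) to 1.13 (Herpud1), and the 5 effectors from 0.02 (Sesn2) to 0.44 (Ddit4). Of the 11 chaperones, 10 lay below 0, with Hyou1 at -0.53 and Creld2, the exception, at 0.30. Atf4 was at 89.6 to 98.8 TPM with vector and 87.7 to 102 TPM with Aoah, a change of 0.01 (SE 0.20).

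**Figure D4:**
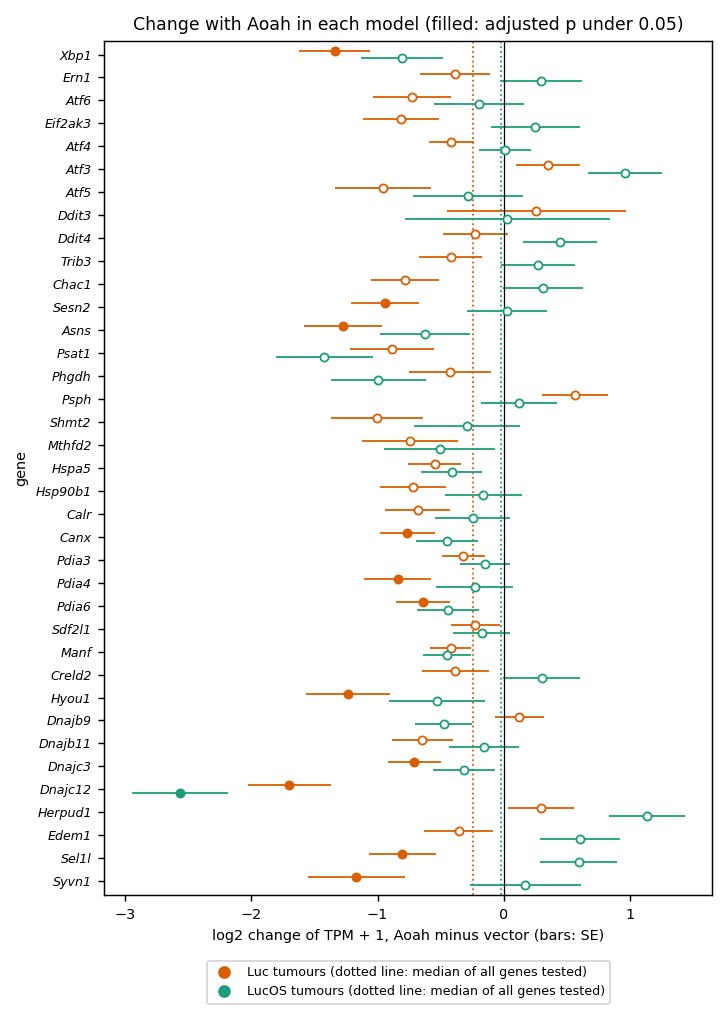
Points are the log2 change of TPM + 1, Aoah minus vector, for each of the 37 genes in Luc and in LucOS tumours, with bars of 1 SE; filled points passed an adjusted p of 0.05 and dotted lines mark the median of all genes tested (-0.24 in Luc, -0.02 in LucOS). In Luc 11 points are filled and all lie below 0, and in LucOS the 1 filled point is Dnajc12.

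With the Aoah effect averaged over both models, 9 of the 37 genes fell and 2 rose, beside 6.68% and 8.02% of all genes tested. Dnajc12 fell by 2.13 on the log2 scale (SE 0.25, limma adjusted p = 9.89e-05), Psat1 by 1.15 (SE 0.26, adjusted p = 0.0080), Xbp1 by 1.07 (SE 0.21, adjusted p = 0.0039) and Asns by 0.95 (SE 0.24, adjusted p = 0.015). The other 5 that fell were Hyou1 (-0.88), Canx (-0.61), Pdia6 (-0.54), Dnajc3 (-0.51) and Manf (-0.44), with adjusted p from 0.024 to 0.048. The 2 that rose were Herpud1 (0.71, SE 0.20, adjusted p = 0.027) and Atf3 (0.66, SE 0.19, adjusted p = 0.035). Xbp1, Psat1 and Dnajc12 passed in all 23 alternatives, Asns in 20, Herpud1 in 17, Canx in 15, Atf3 in 12, Hyou1 in 11, Manf in 9, Pdia6 in 7 and Dnajc3 in 6. This average uses the same tumours as both single comparisons and is not further evidence for them.

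Whether the effect of Aoah differed between LucOS and Luc was tested by the difference of both changes. No gene of the 37 passed in limma, beside 0.00743% of all genes, and 6 had an unadjusted p under 0.05, beside 10.2%. These were Sel1l (difference 1.40, SE 0.41), Syvn1 (1.34, SE 0.58), Chac1 (1.09), Eif2ak3 (1.06), Sesn2 (0.97) and Edem1 (0.96), each with an adjusted p of 0.44 and each less negative or more positive in LucOS. For Dnajc12 the difference was -0.87 and for Herpud1 0.84, and neither passed.

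Antigen was compared within each plasmid arm, among vector tumours and among Aoah tumours. Between LucOS and Luc vector tumours no gene of the 37 passed in limma, beside 0% of all genes, and 5 had an unadjusted p under 0.05, beside 14.2%. A difference below 0 was seen in 31 of 37, beside 70.9%. Xbp1 was one of them, at 57.0 to 129.5 TPM in LucOS vector against 140.1 to 177 TPM in Luc vector tumours (-0.72, adjusted p = 0.34). Its groups did not overlap, as with Trib3 and Chac1, which makes 3 lower genes of 37 beside 7.63% of all genes, and no gene was higher in that way, beside 2.12%. Among Aoah tumours no gene passed either, beside 0.0817%, and 2 had an unadjusted p under 0.05, beside 7.01%: Sel1l (0.89, adjusted p = 0.49) and Dnajc12 (-0.81, adjusted p = 0.68). Sel1l stood at 17.9 to 20.4 TPM in LucOS Aoah against 7.92 to 12.6 TPM in Luc Aoah tumours. With Pdia3 and Herpud1 it made 3 higher genes without overlap, beside 2.2%, and none was lower in that way, beside 5.28%. In 9 of 37 the difference lay below 0, beside 51.1%. The vector and Aoah groups here are the ones used above, so these comparisons share tumours with the Aoah comparisons.

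In each group the lowest values of the 37 genes lay mostly in 1 tumour. Luc vector 2 held the lowest value of its group in 27 of 37 genes, Luc Aoah 3 in 30, LucOS vector 1 in 27 and LucOS Aoah 2 in 23. Luc Aoah 2 held the highest in 28, while in the other groups no tumour held the highest in more than 21. The same shares over all genes were not counted, so this is not shown to be a trait of the set. The median log2(TPM + 1) of all tested genes moved the same way: it was 3.05 in Luc vector 2, 2.67 in Luc Aoah 3, 2.74 in LucOS vector 1 and 2.81 in LucOS Aoah 2, the lowest of each group, and 3.45 in Luc Aoah 2, the highest of its group. Its part in the calls was addressed by centring each tumour on that median, given above. Dnajc12 departed from this order, with Luc vector 2 its highest vector tumour and Luc Aoah 3 its highest Aoah tumour.

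Marker genes of other cells were also called with Aoah. Of the T cell markers 4 of 6 rose in Luc and 2 of 6 in LucOS tumours, beside 7.93% and 0.75% of all genes tested. In Luc 3 of the 4 neutrophil markers tested fell, beside 14.3%. Of the 5 fibroblast and stellate cell markers tested 3 rose in Luc, while Col1a1 changed by -0.52. Also in Luc, 2 of 5 endothelial and 1 of 6 macrophage markers rose, and 1 of the 3 cholangiocyte markers tested fell (Sox9, -2.38). In LucOS none of the neutrophil and fibroblast markers passed in limma, with 3 and 4 at an unadjusted p under 0.05, beside 12.3% of all genes. The summed T cell markers, all 6 of them detected, ran from 4.49 to 12.9 TPM in Luc vector to 36.9 to 63.1 TPM in Luc Aoah tumours, and from 9.78 to 25.5 TPM to 43.3 to 108 TPM in LucOS. Neutrophil markers summed to 119 to 369 TPM with vector and 48.9 to 97.6 TPM with Aoah in Luc, and to 391.6 to 890 TPM and 124 to 430 TPM in LucOS, where the sums overlapped. Fibroblast and stellate cell markers were at 28.4 to 51.6 TPM in Luc vector and 96.6 to 155 TPM in Luc Aoah tumours. The part of these cells in the changes of the stress genes was not tested.

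Plasma cells and pancreatic acinar cells were looked at because their secretory ER is rich in these genes. The 8 plasma cell markers summed to 132 to 208 TPM in Luc vector and 149 to 229 TPM in Luc Aoah tumours, with 4 of 8 under 1 TPM in all tumours of each group. Of the 4 that passed the filter, 2 rose in Luc tumours, Jchain and Mzb1, beside 7.93% of all genes tested, while Txndc5 changed by -0.62. The 8 markers summed to 109 to 173 TPM in LucOS vector, where Tnfrsf17 was listed at 0, and 144 to 240 TPM in LucOS Aoah tumours. In LucOS none of the 4 tested passed in limma, with 2 at an unadjusted p under 0.05, beside 12.3% of all genes. They were Jchain (3.22, adjusted p = 0.15) and Mzb1 (0.98, adjusted p = 0.31), while Txndc5 changed by -0.10 and Sdc1 by -0.06. The 4 B cell markers were under 1 TPM in every tumour. Of 9 acinar markers in the table, 8 were under 1 TPM in Luc vector and 7 in Luc Aoah tumours, with Prss2 listed at 0 in both. Their sum was 14.8 to 17.1 TPM in Luc vector and 21.3 to 29.0 TPM in Luc Aoah tumours, without overlap. Of the 2 acinar markers tested, Cela1 rose in Luc (0.65, adjusted p = 0.023), and in LucOS its change was -0.06. The part of plasma and acinar cells in the results was not tested.

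Genes of the same pathways outside the 37 were counted from 8 lists with 127 genes that passed the filter. In Luc tumours 28 fell and 1 rose, beside 14.3% and 7.93% of all genes tested, with a median change of -0.53. That is 22.8% called in either direction, beside 22.2% of all genes. The share called was thus near the background, while the calls were split less evenly by direction. In LucOS none of the 127 passed in limma and 10 had an unadjusted p under 0.05, beside 12.3% of all genes, with a median of -0.13. Averaged over both models 14 fell and 1 rose, 11.8% called beside 14.7% of all genes, of which 6.68% fell and 8.02% rose. The counts by list below stand beside 14.3% of all genes that fell in Luc tumours and 64% with a change below 0.

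Among 21 other stress sensors and regulators, 8 fell in Luc tumours and none rose. Creb3l3, a liver transcription factor released by cleavage like ATF6, fell from 95.2 ± 7.16 to 47.3 ± 11.7 TPM (SD, n = 4 each). Mbtps1, the site-1 protease that cleaves both, fell from 28.6 ± 8.16 to 10.7 ± 5.06 TPM. Atf6b (-1.07) and Creb3l2 (-1.06), relatives of Atf6 and Creb3l3, fell as well.

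Among 18 other amino acid stress genes, 7 fell and none rose. The amino acid transporters Slc7a5 (-1.56, adjusted p = 0.022), Slc7a3 (-1.14, adjusted p = 0.024) and Slc1a4 (-1.03, adjusted p = 0.026) fell, as did the proline synthesis enzyme Pycr1 (-1.06, adjusted p = 0.027). Of 16 cytosolic aminoacyl-tRNA synthetases, which charge transfer RNA, 4 fell, namely Vars (-1.52), Iars (-1.26), Yars (-1.09) and Nars (-0.82), and all 16 had a change below 0.

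Genes of ER entry, folding and degradation were counted next. Of 13 translocon and signal peptidase genes 3 fell (Sec61a1 -1.29, Ssr1 -0.86 and Ssr2 -0.51), and of 22 other ER folding genes 3 fell (Dnajc1 -1.16, Txndc11 -0.87 and Pdia5 -0.79). In the list of 20 other degradation genes, Edem2 (-1.13) and Ube2g2 (-0.67) fell, whereas Derl2, a channel component of the Sel1l ligase, rose from 40.1 ± 6.21 to 64.9 ± 6.37 TPM (0.69, SE 0.18, adjusted p = 0.018). Outside the ER, none of 9 cytosolic heat shock genes passed in limma, with 3 at an unadjusted p under 0.05, and 1 of 8 mitochondrial chaperones and proteases fell (Lonp1, -1.20).

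**Figure D5:**
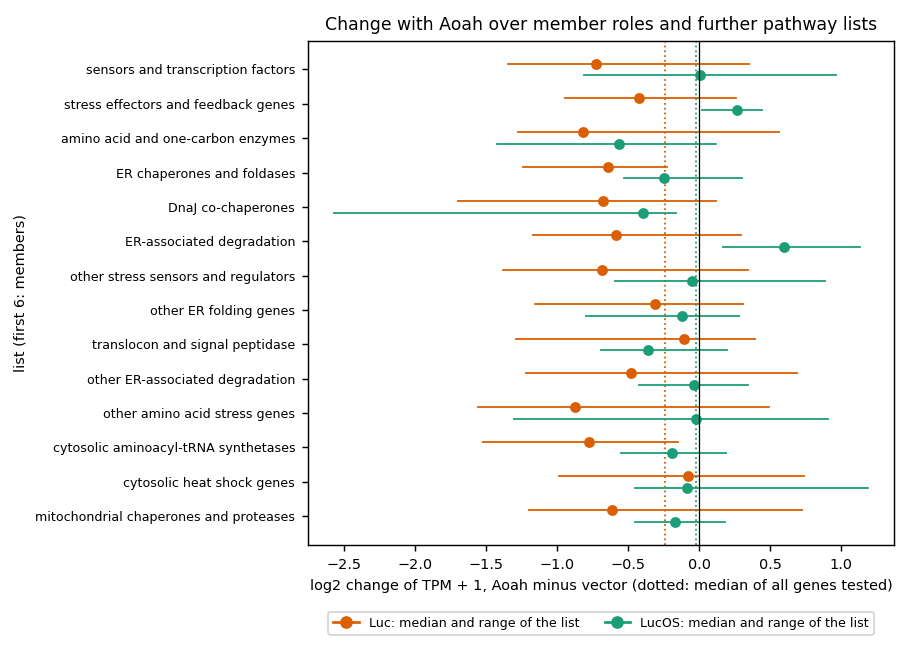
Points are the median and lines the range of the log2 change, Aoah minus vector, over the genes of the 6 roles and of the 8 further pathway lists, in Luc and LucOS tumours; dotted lines mark the median of all genes tested. In Luc 12 of 14 list medians lie left of the dotted line at -0.24, all but the translocon and heat shock lists, and in LucOS the degradation genes have the highest median, 0.60.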

How the data were processed

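Bulk polyA RNA was measured in 14 tumours. The authors deposited log2 values of TPM + 1, quantified with RSEM on build mm39 per the submitters' processing notes, which give no versions; the aligner and library strandedness are not given here, so overlapping genes may share reads. The authors also deposited, per the file headers and processing notes, tables of their own DESeq2 comparisons with a mean normalized count per gene (treated as a signal), log2 fold changes with errors, a test score, p-values and adjusted p-values. Fold changes in those tables were taken as Aoah over vector because Aoah itself is positive there. Symbols for 95.5% and 95.6% of their identifiers came from GENCODE M21. The repertoire table was not used. No per-sample counts were used, so no count test was run.

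Deposited values were fitted with limma 3.58.1 in R 4.3.3, with 1 mean per group over all 14 tumours, trended and robust moderated variances and Benjamini-Hochberg adjustment over 13466 genes at 1 TPM or more in at least 3 tumours. Adjusted and unadjusted p-values in the text come from this limma fit unless named otherwise, and a change is on the log2(TPM + 1) scale, which understates changes of low genes. Simulated data with 200 changed genes were used to test the fit. Promoters were searched with Python 3.11.15 in RefSeq sequences of GRCm38.p6.

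The 37 genes, their roles and the further lists were chosen with earlier results of these data known. Of the 37, genes past adjusted p 0.05 in a model are given with every tumour's value there and others by value or range. Up to 4 genes per further list, by smallest p in Luc tumours, are given by change or group mean. Alternatives changed the pseudocount, filter, scaling, moderation, samples fitted and replicate block, left out each tumour in turn, and used the authors' tables; leaving out the pairs of tumours was chosen after seeing the data.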

Additional observations from a re-analysis of the deposited data

Results flagged for a closer look

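Each of the 37 genes was checked in both groups of 4 tumours for a single tumour far from the others (Dixon's test at 95%), 74 checks in all, and 7 stood out. Chance gives about 1 in 20.

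Luc vector 2 was low in 4 genes: Chac1 at 1.53 TPM (next tumour 3.26), Shmt2 at 41.73 TPM (98.42), Calr at 820.95 TPM (1079.19) and Creld2 at 38.44 TPM (65.26). The same tumour was the lowest of its group in 27 of 37 genes and had the lowest median of all genes in its group, 3.05 on the log2 scale. Luc Aoah 2 was high in Creld2 at 56.64 TPM (next 41.29). In Luc Aoah 3, the tumour with the most small noncoding RNA, Atf3 was low at 5.83 TPM (next 7.35). Ddit3 was high in Luc Aoah 4 at 26.203401 TPM (next 4.03), in a row whose gene model is uncertain.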

How the results depend on the processing

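In Luc tumours the number of the 37 genes past the threshold was 11. It was 23 in the authors' deposited table, 3 with no filter on low values and 1 without Luc vector 1 and Luc vector 3, and 3 to 21 when 1 tumour was left out; Xbp1, Asns and Dnajc12 were called in each of those 8 fits. In LucOS tumours the number was 1. It was 2 in the authors' table and with tumours centred on their median, 0 with no filter and with only the samples of the comparison, and 0 to 3 with 1 tumour left out (0 without LucOS Aoah 1 or 3, 3 without LucOS vector 2). The number of the 37 genes called in the average over both models was 11. It was 3 with no filter, 4 without Luc Aoah 3 and LucOS Aoah 3, 3 without Luc vector 1 and Luc vector 3, and 4 to 16 with 1 tumour left out, where leaving out Luc Aoah 1, Luc Aoah 4, Luc vector 1, 3 or 4, LucOS Aoah 2 or 3, or LucOS vector 2 or 3 moved it by over 1.5 times. Fewer tumours enter the fits that leave tumours out, and more genes are adjusted for without the filter; the cause of the other shifts was not tested. The difference between models and both antigen comparisons gave 0 by limma in all settings run. Over all genes, the calls went from 2988 to 1288 in Luc, from 130 to 15 in LucOS and from 1980 to 1300 in the average when the filter was removed, to 1168, 34 and 1237 with the replicate block, and to 4120, 218 and 3272 with centred tumours. Fitting only the LucOS tumours left 6.

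Between tumours with the same number, the r of deviations from the group means ran from -0.554 to 0.198. In groups of 3 or 4 tumours this cannot decide whether equal numbers share an animal or batch. The labels do not say so either. With a replicate block the number called was 3 in Luc tumours, 1 in LucOS tumours and 4 in the average.

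Values of single genes were tallied over the alternatives for 34 selected pairs of a gene and a comparison, not for every gene. Among these, 463 values kept direction and call, 13 gained the call, 171 lost it and 1 changed sign. The last was Ddit3 in Luc tumours without Luc Aoah 4 (0.26 with all tumours, neither called). Its change ran from -0.4804 to 0.6002 with 1 tumour left out. Pairs outside the 34 changed sign as well. In Luc tumours Ddit4 and Sdf2l1 each lay below 0 in 16 of 18 alternatives and above 0 in 2. In LucOS tumours Atf4 lay above 0 in 10 of 15 alternatives and below 0 in 5. Fits on only the samples of the comparison do not exist for the average and the difference, which use all 14 tumours. TPM holds no depth, so no detection limit can be given, and groups of 3 and 4 tumours limit what can be detected.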
